A study of Mus musculus with 9 samples.

Results

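The genes described here are the matrix metalloproteases Mmp2, Mmp3, Mmp9, Mmp14, Mmp15 and Mmp23 and the tissue inhibitors of metalloproteases Timp1 to Timp4, 10 genes in all. Members were taken as every probe set that the platform annotation pairs with exactly 1 gene symbol equal to a listed name, which gave 23 of the 45037 probe sets that are not controls. They stand for 9 of the 18193 genes with such a probe set, and Mmp15 was not analysed here. Expression was measured on Affymetrix mouse arrays in the left ventricle of male C57BL/6 mice, of which a group of 4 arrays had undergone transaortic constriction (TAC) and a group of 5 arrays a sham operation 6 weeks before. Constriction narrows the aorta, so that the left ventricle pumps against a raised pressure, and the series used it to induce heart failure. Both groups share strain, sex, organ and time point, the ages of the mice are not given in the sources used here, and the arrays measured whole tissue, in which fewer cells of a type and less RNA per cell cannot be told apart. The labels give no batch, no pairing and no statement that each array is a separate animal, so a p-value here speaks only of the spread among these arrays, which may be technical.

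Metalloproteases are zinc-dependent enzymes that cut collagens, gelatins, proteoglycans and other proteins outside the cell. Most are made as inactive proenzymes, and TIMPs block the active enzymes by occupying the catalytic site. MMP14, which sits in the cell membrane, uses TIMP2 as a bridge to bind and activate the proenzyme of MMP2, so TIMP2 serves as both a partner and an inhibitor. In the heart these genes are known for remodelling of the matrix under load, and TIMP4 is known for its high expression there.

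All values are RMA values on a log2 scale, and each gene is represented by its brightest probe set (mean of the 9 arrays) unless another is named. Differences are TAC minus sham with the standard error (SE) of a limma fit, and adjusted p-values are Benjamini-Hochberg values over all genes, or over all probe sets where a single probe set is named. A gene is said to have risen or fallen when its adjusted p is below 0.05. Of the 9 measured genes 6 rose (Mmp2, Mmp3, Mmp14, Mmp23, Timp1 and Timp2), 1 fell (Timp4, whose call was lost in 6 of the 9 fits that left out 1 array), and Mmp9 and Timp3 did not pass. Over all genes, 25.1% passed, 12.8% higher and 12.3% lower in TAC. The share was larger among brighter genes: when only the 9096 genes above the median gene were fitted, 4124 passed. Every measured member except Mmp9 is among those 9096. In 6 of the 9 genes no TAC value overlapped a sham value, beside 25.2% of all genes. The median difference of the 9 genes was 0.64, beside 0.00 over all genes. The median of all probe sets is the same in every array, so these differences are relative to the array as a whole.

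The label check and the arrays as a whole were as follows. The stress markers Nppa and Nppb, which encode natriuretic peptides, and Myh7, which encodes the slow myosin heavy chain, were higher in each TAC array than in each sham array, with differences of 2.14, 1.30 and 3.03. The 8 cardiomyocyte markers, which do not tell the chambers of the heart apart, had a mean level of 14.09 to 14.13 in the sham arrays and of 14.04 in the TAC arrays. Of these markers 1, Tnni3, was called lower (-0.16, limma adjusted p = 0.0475). Their levels lie close to the highest value in the arrays, 14.799, where a difference can be understated. On the first 2 principal components sham replicate 2 lay away from its group, and it held the lowest sham value for 5 of the 9 genes described here (Mmp2, Mmp3, Mmp23, Timp1 and Timp2). Without it the same 6 genes were called higher and Timp4 lower.

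**Figure D1:**
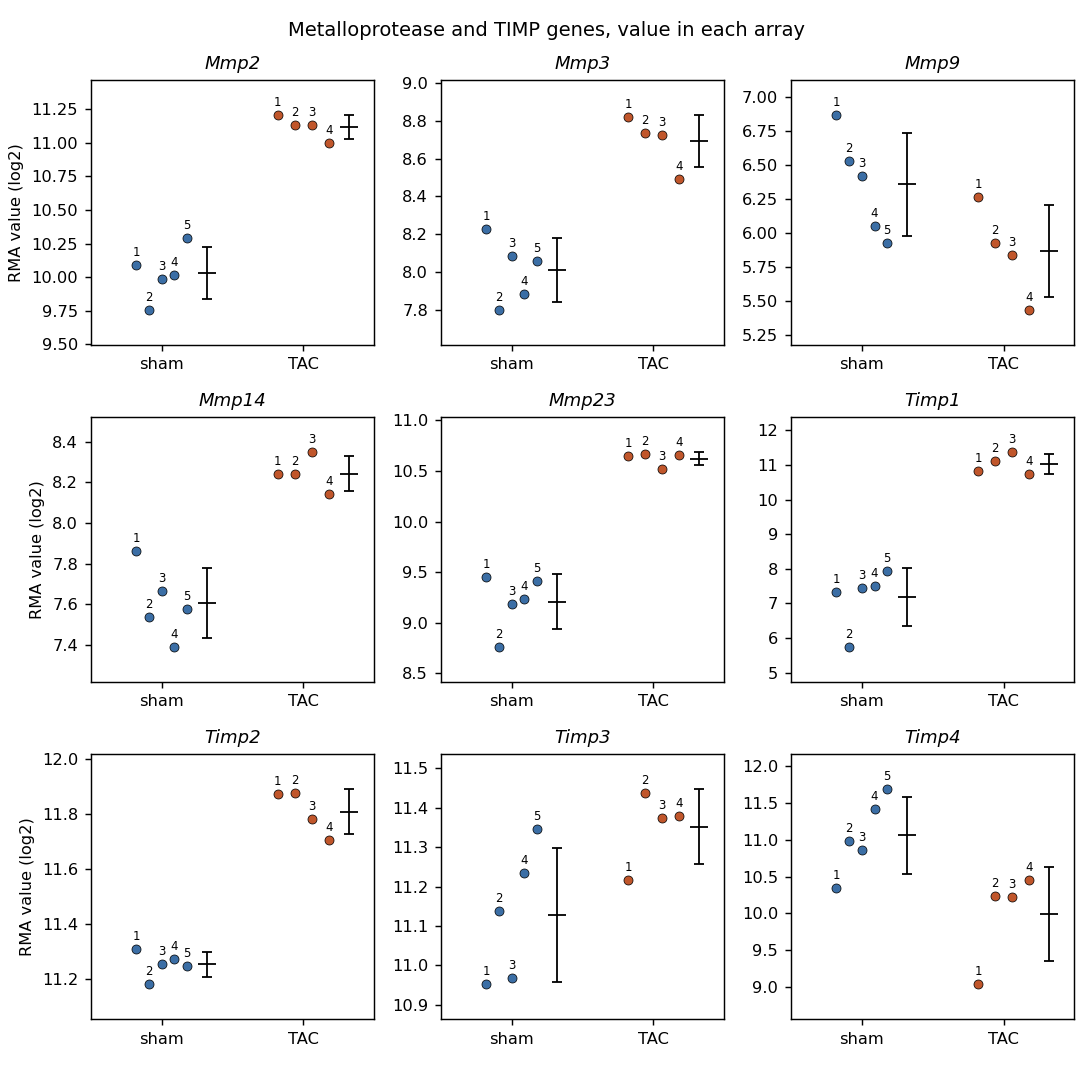
RMA value (log2 scale, with its own range in each panel) of the 9 measured genes in each sham array (blue, n = 5) and each TAC array (orange, n = 4); numbers are replicate numbers, bars are the mean ± SD. The groups are apart in Mmp2, Mmp3, Mmp14, Mmp23, Timp1 and Timp2, and overlap in Mmp9, Timp3 and Timp4.

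Promoter letters are shown for 3 genes that rose and the gene that fell, because the direction of Timp4 was opposite to that of the others. Sequences are from RefSeq (GRCm38.p6), and 8 of the 10 genes matched. Each line holds the 250 bases before the annotated start, read 5′ to 3′ along the gene. Capitals mark letters found on either strand that spell the AP-1 site TGAGTCA, the core AGGAAG bound by ETS factors, the TATA box TATAAA or the GC box GGGCGG. Letters on the other strand appear as their reverse complement, CTTCCT in Timp4 and CCGCCC in Timp1. In Mmp14 the 2 GC boxes lie side by side. Mmp23 and Timp2, which also rose, are not printed. In the 250 bases before the start, Mmp23 held none of these sequences and Timp2 held only a GC box.
Timp1 upstream, chrX:20869916-20870165, + strand: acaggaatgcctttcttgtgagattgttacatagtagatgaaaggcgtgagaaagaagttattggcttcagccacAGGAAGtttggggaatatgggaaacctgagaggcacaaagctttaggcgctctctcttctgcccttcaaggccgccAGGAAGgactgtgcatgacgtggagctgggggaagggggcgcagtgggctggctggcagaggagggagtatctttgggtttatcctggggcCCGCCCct
Mmp3 upstream, chr9:7445572-7445821, + strand: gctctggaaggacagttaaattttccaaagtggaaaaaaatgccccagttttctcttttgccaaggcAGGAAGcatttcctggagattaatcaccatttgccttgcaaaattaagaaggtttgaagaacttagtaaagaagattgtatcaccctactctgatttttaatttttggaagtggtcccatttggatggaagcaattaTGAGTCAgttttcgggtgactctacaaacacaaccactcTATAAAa
Mmp14 upstream, chr14:54431348-54431597, + strand: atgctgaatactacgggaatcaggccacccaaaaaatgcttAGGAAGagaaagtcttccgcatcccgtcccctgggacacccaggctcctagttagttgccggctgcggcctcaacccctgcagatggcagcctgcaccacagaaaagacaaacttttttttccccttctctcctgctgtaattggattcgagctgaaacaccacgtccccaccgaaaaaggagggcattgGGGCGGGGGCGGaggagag
Timp4 upstream, chr6:115252206-115252455, - strand: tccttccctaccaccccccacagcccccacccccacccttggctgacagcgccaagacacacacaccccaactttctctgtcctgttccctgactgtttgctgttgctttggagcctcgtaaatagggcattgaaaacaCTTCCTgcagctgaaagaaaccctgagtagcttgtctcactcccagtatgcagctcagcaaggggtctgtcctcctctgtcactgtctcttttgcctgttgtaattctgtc
Timp1 around the variant AP-1 letters, chrX:20870181-20870209, + strand: cggtgggtggaTGAGTAAtgcgtccagga

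The last line shows a variant AP-1 sequence, TGAGTAA, which starts 27 bases into the Timp1 transcript as annotated, with 11 bases on each side. Windows of 300 bases, from 250 before to 50 after a start, were searched on both strands for all 5 sequences, and the members held 9 such windows. TGAGTCA was in 1 member window, that of Mmp3, and in 5.2% of all 32851 windows. TGAGTAA was in 1, that of Timp1, and in 2.68% of all windows. AGGAAG was in the windows of 5 genes (Mmp3, Mmp14, Timp1, Timp3 and Timp4), which include 3 that rose and the gene that fell, and in 35.4% of all windows. GGGCGG was in windows of 6 genes (Mmp14, Mmp15, Mmp23, Timp1, Timp2 and Timp3) and in 35.7% of all windows. TATAAA was in the window of Mmp3 and in 13.6% of all windows. These are matches of letters and not measured sites. The genes of Mmp2 and Mmp9 have no entry in the table.

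The secreted gelatinase gene Mmp2 rose. It had values of 10.09, 9.76, 9.99, 10.01 and 10.29 in sham replicates 1 to 5 and of 11.21, 11.14, 11.14 and 10.998 in TAC replicates 1 to 4. Every TAC array lay above every sham array, and the TAC arrays were within 0.21 of each other. The group means were 10.03 ± 0.19 (SD, n = 5) and 11.12 ± 0.09 (SD, n = 4), a difference of 1.09 (SE 0.10, 95% confidence interval 0.87 to 1.31, limma adjusted p = 4.06e-05) or 2.13-fold. Its dimmer probe set, 1416136_at, rose by 1.27, and its groups did not overlap either.

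Mmp23, which encodes a metalloprotease anchored in the membrane by its amino-terminal end, had the largest rise among the measured proteases in this set. Its sham values were 9.45, 8.76, 9.19, 9.23 and 9.41 and its TAC values 10.65, 10.66, 10.52 and 10.65. The TAC arrays were closely grouped and all above the sham arrays. The means of 9.21 ± 0.27 (SD, n = 5) and 10.62 ± 0.07 (SD, n = 4) differed by 1.41 (SE 0.13, interval 1.13 to 1.70, limma adjusted p = 3.64e-05), or 2.66-fold. The other probe set of Mmp23, 1417282_at, rose by 1.37.

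Mmp14, the membrane protease that activates proMMP2, rose less. It measured 7.86, 7.54, 7.67, 7.39 and 7.58 in sham and 8.24, 8.24, 8.35 and 8.14 in TAC. All TAC values were again above all sham values. The difference was 0.64 (SE 0.09, interval 0.43 to 0.85, limma adjusted p = 0.000747), or 1.56-fold. A second probe set, 1440920_at, rose by 0.42, and the dimmest, 1416572_at, differed by 0.38 and did not pass (limma adjusted p = 0.0572).

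Mmp3, which encodes stromelysin-1, a protease that cuts proteoglycans and activates other metalloproteases, rose by an amount like that of Mmp14. Its sham values were 8.23, 7.80, 8.08, 7.88 and 8.06 and its TAC values 8.82, 8.74, 8.72 and 8.49, with no overlap. The difference was 0.68 (SE 0.10, interval 0.46 to 0.91, limma adjusted p = 0.000789), or 1.60-fold. In the reference gene table (GRCm38.p6) Mmp3 lies in a row of 10 metalloprotease genes, of which 9 were measured. The other 8 (Mmp1a, Mmp1b, Mmp7, Mmp8, Mmp10, Mmp12, Mmp13 and Mmp20) had differences from -0.57 to 0.13, and in limma the smallest adjusted p among them was 0.159.

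Mmp9 encodes the second gelatinase, which neutrophils store and macrophages and other cells can make. It had sham values of 6.87, 6.53, 6.42, 6.06 and 5.93 and TAC values of 6.27, 5.93, 5.84 and 5.44. The groups overlapped, with the highest TAC array above the 2 lowest sham arrays. The difference of -0.49 (SE 0.21, interval -0.95 to -0.03) did not pass (limma adjusted p = 0.114), and none of the 9 fits that left out 1 array called it, with differences from -0.63 to -0.35. The other probe set, 1448291_at, differed by -0.27 (limma adjusted p = 0.291). Neutrophil markers, of which 6 of 8 were measured, had a mean level of 5.71 to 6.17 in sham and 5.70 to 6.25 in TAC. In limma 0 of them passed, also when a trend of the variance and robust fitting were used. At an unadjusted p below 0.05 the count was 0 too. Csf3r, Cxcr2, Mpo and Elane had low sham means (6.06, 4.61, 3.83 and 3.81), below the chemoreceptor level of 7.13 described later. A change in neutrophils could therefore be missed by these counts.

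Among the inhibitors, Timp1 rose by the largest amount of all 9 genes. It encodes an inhibitor that is inducible in many cells and blocks most secreted metalloproteases, while it inhibits membrane-anchored ones such as MMP14 poorly. Its sham values were 7.33, 5.75, 7.45, 7.51 and 7.94 and its TAC values 10.83, 11.12, 11.38 and 10.75. The lowest TAC array was 2.81 above the highest sham array, and sham replicate 2 was far below the other sham arrays. The means were 7.20 ± 0.84 (SD, n = 5) and 11.02 ± 0.28 (SD, n = 4). The difference was 3.82 (SE 0.37, interval 3.001 to 4.64, limma adjusted p = 5.24e-05), or 14.1-fold, and 3.46 without sham replicate 2. A single probe set stood for Timp1.

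Timp2, the partner of MMP14, rose by a smaller amount from a higher value of its own probe set. It measured 11.31, 11.18, 11.25, 11.27 and 11.24 in sham and 11.87, 11.88, 11.78 and 11.70 in TAC. The sham arrays were within 0.13 of each other, and no TAC array came near them. The difference was 0.56 (SE 0.06, interval 0.42 to 0.69, limma adjusted p = 0.000133), or 1.47-fold. Of its 6 probe sets 5 rose, of which 4 did so by 0.52 to 0.67. The smallest of these rises was that of 1437081_at (limma adjusted p = 0.0439), which was dim (mean 5.31) and lost its call in 6 of the 9 fits that left out 1 array. The fifth, 1450040_at, rose 2.30-fold, and its log2 interval of 0.88 to 1.52 lay above that of the brightest probe set (0.41 to 0.71). The sixth, 1420924_at, differed by 0.24 and did not pass (limma adjusted p = 0.410).

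Timp3 encodes the inhibitor that binds tightly to the matrix and also blocks ADAM and ADAMTS proteases. At its brightest probe set it had sham values of 10.95, 11.14, 10.97, 11.24 and 11.35 and TAC values of 11.22, 11.44, 11.37 and 11.38. The groups overlapped through TAC replicate 1, which lay below sham replicates 4 and 5. The difference of 0.22 (SE 0.09, interval 0.02 to 0.43) did not pass (limma adjusted p = 0.113), but it did without sham replicate 5 (0.28, limma adjusted p = 0.0441). The mean of the 4 Timp3 probe sets also passed, with a difference of 0.32 (limma adjusted p = 0.00450). Of the single probe sets, 1419088_at rose by 0.53 (limma adjusted p = 0.00200) and 1449334_at by 0.35 (limma adjusted p = 0.00910), while 1419089_at differed by 0.19 and did not pass (0.144). All 4 differences were above 0, from 0.19 to 0.53, so the probe sets differ in size and call but not in sign.

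Timp4 was lower in TAC. Its sham values were 10.34, 10.99, 10.86, 11.43 and 11.69 and its TAC values 9.04, 10.23, 10.22 and 10.45. TAC replicate 4 lay above sham replicate 1, so the groups overlapped, and TAC replicate 1 was far below the other TAC arrays. The means were 11.06 ± 0.52 (SD, n = 5) and 9.98 ± 0.64 (SD, n = 4), a difference of -1.08 (SE 0.32, interval -1.79 to -0.36, limma adjusted p = 0.0331), or 2.11-fold lower. The call was lost in 6 of the 9 fits that left out 1 array, namely sham replicate 3 (limma adjusted p = 0.0501), 4 (0.0747) or 5 (0.0712), or TAC replicate 1 (0.0723), 2 (0.0527) or 3 (0.0578). The differences in the 9 fits ran from -1.26 to -0.76. The other probe set, 1450974_at, had sham values of 9.26, 9.80, 9.66, 10.33 and 10.32 and TAC values of 7.93, 8.998, 8.89 and 9.07, with no overlap. It fell by 1.15 (SE 0.27, limma adjusted p = 0.0150). The 9 fits above are over all genes. In the 9 fits over all probe sets that left out 1 array, 1450974_at kept its call each time, with limma adjusted p up to 0.0375. In those same fits the brightest probe set, 1423405_at, was called in 2. The 2 probe sets measure the same gene on the same arrays, so they are not separate samples.

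**Figure D2:**
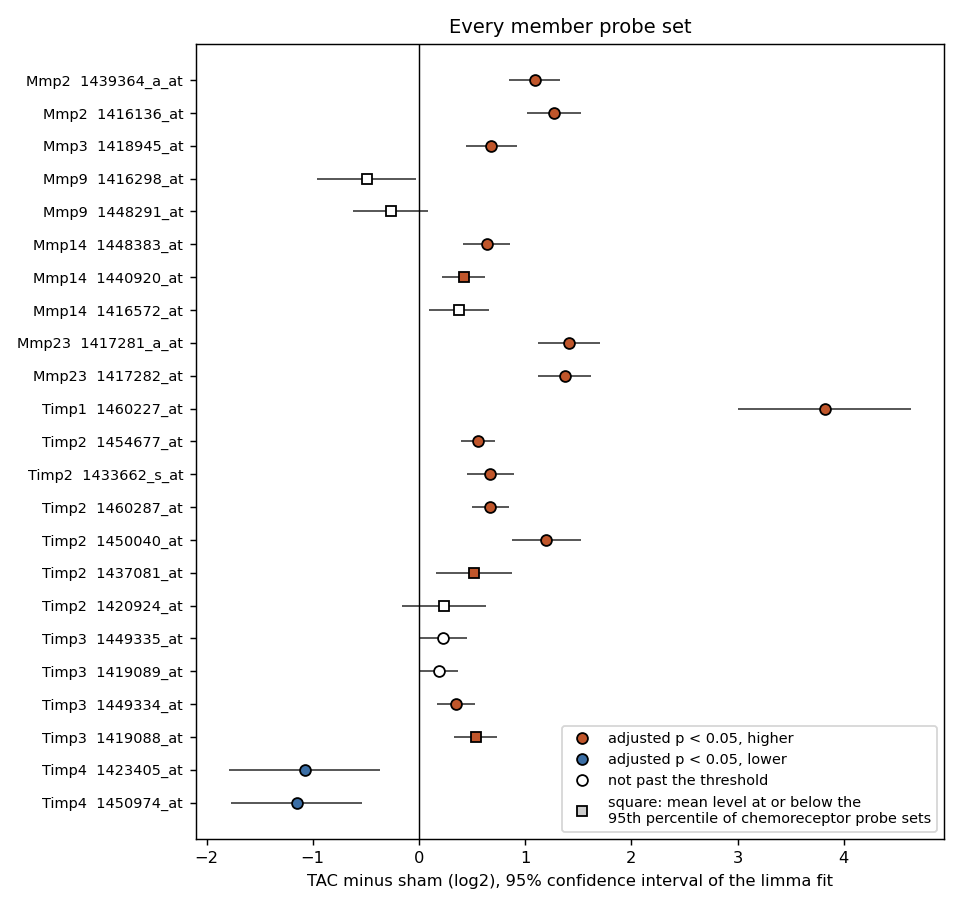
Difference TAC minus sham (log2 scale) with its 95% confidence interval for each of the 23 member probe sets, named by gene and probe set; filled symbols passed an adjusted p below 0.05 over all probe sets, and squares have a mean level no higher than the 95th percentile of chemoreceptor probe sets. Of the 23, 15 are higher, 2 (both of Timp4) are lower and 6 are open symbols.

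Over single probe sets, 15 of the 23 rose, 2 fell and 6 did not pass, where 17.7% of all probe sets passed, 8.87% higher and 8.86% lower. TAC and sham values were fully apart in 16 of the 23, beside 19.8% of all probe sets. For 5 genes (Mmp2, Mmp3, Mmp23, Timp1 and Timp4) every probe set passed in the same direction. No member had probe sets called in opposite directions. In the 9 fits that left out 1 array, 14 of the 15 higher probe sets and 1 of the 2 lower ones, 1450974_at, were called each time.

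The table holds no detection calls, so levels were set beside those of 83 probe sets of odorant, vomeronasal and taste receptors, whose main known expression is outside the heart. The 95th percentile of their mean levels over the 9 arrays was 7.13. Of the 23 member probe sets 16 were above it, of which 12 rose, 2 fell and 2 (both of Timp3) did not pass. Both Mmp9 probe sets were below it, with means of 6.14 and 5.48, as were 2 of Mmp14, 2 of Timp2 and 1 of Timp3. The mean of Timp1 in the sham arrays, 7.20, was close to that level, whereas its TAC mean of 11.02 was far above. Probe sets bind with different strength, so these levels give no order of abundance between genes.

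**Figure D3:**
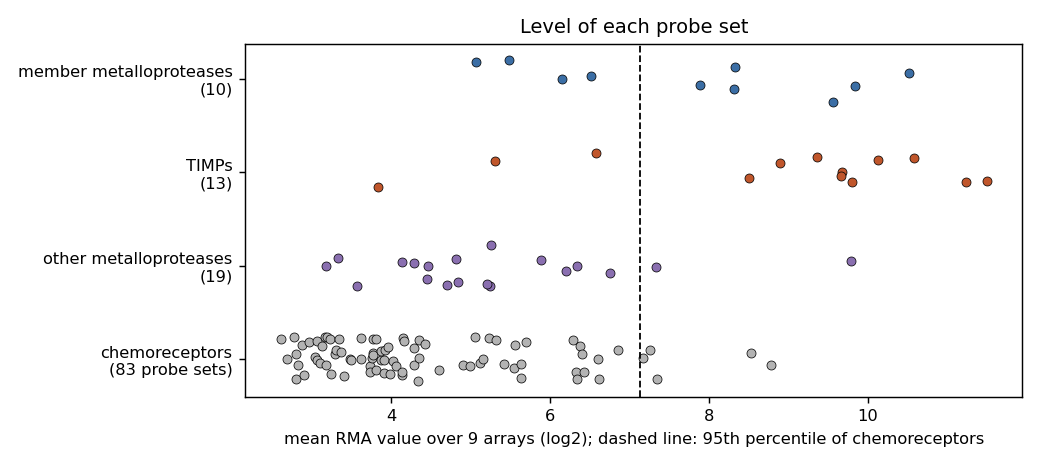
Mean RMA value over the 9 arrays (log2 scale) of each probe set of the member metalloproteases (10), the TIMPs (13), the other metalloproteases (19) and the chemoreceptors (83); vertical scatter within a row has no meaning, and the dashed line is the 95th percentile of the chemoreceptors, 7.13. The member probe sets lie on both sides of the line, and 17 of the 19 of other metalloproteases lie below it.

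Changes of inhibitors and proteases on the same array were set side by side for 4 pairs picked with their values known, without a test. The log2 gap between Timp1 and Mmp2 was -4.01 to -2.36 in the sham arrays and -0.38 to 0.24 in the TAC arrays, a change of 2.73 (2.55 with the other Mmp2 probe set). The gap between Timp2 and Mmp2 was 0.95 to 1.42 in sham and 0.64 to 0.74 in TAC at the brightest probe sets, a change of -0.53. Its sign depended on the probe set: over the 8 pairs of probe sets above the chemoreceptor level the change ran from -0.72 to 0.11, above 0 in 1 pair (with Timp2 1450040_at), and the groups overlapped in 3. Between Timp2 and Mmp14 the gap changed by -0.08, and the groups overlapped (3.45 to 3.88 in sham, 3.43 to 3.64 in TAC). Over its 4 such pairs the change ran from -0.08 to 0.56, and the groups overlapped in all 4, so no direction is given. Between Timp1 and Timp4, which moved in opposite directions, it changed by 4.90, from between -5.24 and -3.01 to between 0.30 and 1.79. The size of a gap within an array also carries the binding strength of the 2 probe sets, and its change between groups is the quantity to read.

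The genes most like Timp1, Mmp2 and Timp4 were those with the smallest root mean square difference in log2 value over the 9 arrays. Each gene was first centred on its own mean. Predicted genes, clone symbols and small RNA genes were left out of the ranking. For Timp1 these were Thbs4 (0.25), which encodes the matricellular protein thrombospondin 4, Cilp (0.27), a matrix gene of cartilage and activated fibroblasts, and Pamr1 (0.27). For Mmp2 they were Pcolce (0.06), which encodes an enhancer of procollagen C-proteinase, Ccdc80 (0.06) and Efhd2 (0.07). For Timp4 they were the alcohol dehydrogenase gene Adh1 (0.27), Ubxn10 (0.35) and the sulfotransferase gene Sult1a1 (0.35), all lower in TAC (-1.05, -1.20 and -0.91). The values for Mmp2 were smaller than those for the other 2 genes. The measure is not scaled by how much a gene varies, so it does not rank closeness between Timp1, Mmp2 and Timp4. The measure is a description and favours genes whose difference between the groups is of a like size.

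Markers of cell types that could carry these genes were read beside them. Activated fibroblast markers rose in 7 of 8 and 1, Acta2, fell, and the mean level of the list was 7.78 to 8.996 in sham and 10.67 to 11.10 in TAC. Of the 8 fibroblast markers 3 rose (Col1a1, Dcn and Lum) and 1 fell (Dpep1), with levels of 11.16 to 11.24 and 11.22 to 11.52. Pdgfra, Tcf21, Dpt and Gsn did not pass. Col1a1 and Dcn, and Postn of the activated fibroblast list, are counted again among the matrix substrates below. Of the 8 macrophage markers 6 rose, with levels of 9.0001 to 9.47 and 9.85 to 9.96. Cd68 (0.47) and Cd163, which differed in the other direction (-0.40, limma adjusted p = 0.0564), did not pass. Sham replicate 2 had the lowest sham level in 8 of the 12 marker lists, among them the activated fibroblast list (7.78, with next lowest 8.31), the macrophage list (9.0001, with next lowest 9.39) and the endothelial and mural lists. It had the highest sham level in 2, the cardiomyocyte and neutrophil lists. Endothelial markers, with 1 of 8 lower, and mural markers, with 1 of 8 higher and 3 lower, had medians of -0.10 and -0.11. T cell, adipocyte and mesothelial markers had 0 called genes of 5, 4 and 5 measured in limma, and B cell and Schwann cell markers had 1 lower of 5 and of 3. At an unadjusted p below 0.05 the T cell list had 0 genes and the other lists without a call, adipocyte and mesothelial, 1 each. Limma with a variance trend and robust fitting called 0 in all of them, and without sham replicate 2 the adipocyte list had 1 lower gene. The mean levels of the T cell, adipocyte and mesothelial lists were below the chemoreceptor level of 7.13 in every array, so a change could be missed. The part of a changed cell makeup in the changes of the metalloproteases and TIMPs was not tested.

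The other genes of the pathway came from 6 lists. Of 17 further metalloprotease genes 13 were measured, and 0 rose or fell in limma, with a median of -0.08. At an unadjusted p below 0.05 the count was 1, Mmp19, and in limma with a variance trend and robust fitting it was 0 after adjustment. The smallest p-values were those of Mmp19 (0.29, SE 0.11, limma adjusted p = 0.0862) and of the neutrophil collagenase gene Mmp8 (-0.17, limma adjusted p = 0.159). Without sham replicate 2, Mmp19 passed with a difference of 0.37 (limma adjusted p = 0.0185), as did the collagenase gene Mmp13 with -0.83 (limma adjusted p = 0.0273), whose values of 3.47 to 4.96 were below the chemoreceptor level in every array. All of these genes except Mmp19 and Mmp24 had their brightest probe set at or below that level.

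Of 19 measured genes listed under proteolytic activation, inhibition and clearance 8 rose and 1, the proprotein convertase gene Pcsk6, fell (-0.21), with a median of 0.25. Those that rose include Itgav (0.21, limma adjusted p = 0.0340), of which 0 of 5 probe sets passed in the fit over all probe sets. Serpinf1, which encodes a secreted serpin, rose by 1.80, Lrp1, an endocytic receptor that clears metalloproteases with their inhibitors, by 1.00, the hyaluronan receptor gene Cd44 by 1.05 and the tissue plasminogen activator gene Plat by 0.90. Reck, which encodes a membrane-anchored inhibitor of metalloproteases and was picked with its value known, rose by 0.86 (SE 0.16, limma adjusted p = 0.00343). Furin, which cuts the proenzymes of MMP14 and MMP23, differed by -0.14 and did not pass (limma adjusted p = 0.130). Of 13 ADAM and ADAMTS genes, a group that includes proteases blocked by TIMP3, 5 rose and 1, Adamts5, fell (-0.41), with a median of 0.31. Those with the smallest p were Adamts8 (2.31), Adam12 (1.29), Adam9 (0.73) and Adamts4 (2.34), an aggrecanase gene. Adamts8 was below the chemoreceptor level in both groups (means of 3.58 and 5.89), and Adam12 was below it in sham (5.85) and close to it in TAC (7.15). Adamts1 was the fifth, with a difference of 0.71 (limma adjusted p = 0.0375), and its groups overlapped.

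Of 21 matrix substrates 18 rose and 0 fell, with a median of 0.90, above the median of 0.64 of the metalloproteases and TIMPs. The fibrillar collagen genes Col1a2, Col5a2 and Col5a1 rose by 1.28, 2.03 and 0.97 and the proteoglycan gene Vcan by 2.10. Of 17 cytokine and peptide genes 8 rose and 2, Ctf1 (-0.96) and Pdgfa (-0.36), fell, with a median of 0.29. Tgfb2, Ccn2 and Tgfb3 had the smallest p among those that rose, with 2.04, 1.82 and 1.54. Il6, Il11, Osm and Lif also rose, but their means in both groups lay below the chemoreceptor level. Edn1 rose by 0.29 in the fit over genes and did not pass in the fit over all probe sets. Of 20 transcriptional regulators 6 rose and 0 fell, with a median of 0.11. They included Twist1 (0.76) and Stat3 (0.43). Of the 5 ETS family genes in the list Etv5 (1.12), Etv4 (0.59) and Elk3 (0.27) rose, Etv4 from a level below that of the chemoreceptors (means of 4.99 and 5.59), while Ets1 (-0.03) and Ets2 (0.10) did not pass. For Ets2, 1 of its 3 probe sets was called higher, and their differences ran from 0.10 to 0.26. Among the AP-1 genes Fosl2 rose by 0.76 (limma adjusted p = 0.0273), and its groups overlapped. Fos (-0.33), Fosb (-0.80), Fosl1 (0.08), Jun (0.12), Junb (0.39) and Jund (0.05) did not pass. Other probe sets of Lrp1, Cd44, Vcan, Adamts5, Pdgfa, Fosl2, Elk3 and Stat3 did not all pass, and in none of these was a probe set called in the opposite direction.

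**Figure D4:**
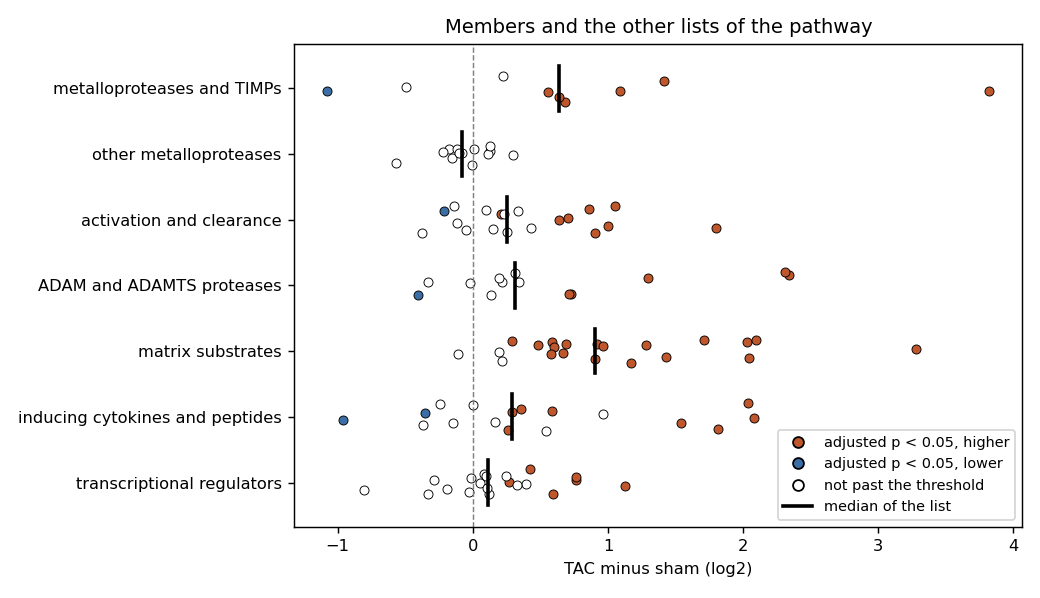
Difference TAC minus sham (log2 scale) of each measured gene in the 9 metalloproteases and TIMPs and in the 6 lists of the pathway, with filled symbols for an adjusted p below 0.05 over all genes and a black line at the median of each list; vertical scatter within a row has no meaning. The other metalloproteases have open symbols throughout, and the matrix substrates have the highest median, 0.90.

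Of the 4 TIMP genes 3 lie inside a synapsin gene in the reference gene table, namely Timp1 in Syn1, Timp4 in Syn2 and Timp3 in Syn3. Timp1 and Timp4 are on the strand opposite to their hosts by the annotated starts. Synapsins are proteins of synaptic vesicles. Syn2 measured 7.72, 7.32, 7.91, 7.69 and 7.92 in sham and 9.21, 9.45, 9.05 and 8.49 in TAC, with no overlap. It rose by 1.34 (SE 0.19, limma adjusted p = 0.000551), while Timp4, the gene inside it, was lower. Syn2 stayed called in each of the 9 fits that left out 1 array, with differences from 1.202 to 1.52, and 3 of its 6 probe sets rose (by 0.38 to 1.34), the other 3 being its dimmest. Syn1, at 0.34 (limma adjusted p = 0.0806), and Syn3, at 0.00 (limma adjusted p = 0.997), did not pass, and both were below the chemoreceptor level.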

How the data were processed

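Per the submitters' processing notes, the authors used RMA, in a version not given, to obtain the deposited log2 values. RMA corrects background, brings arrays to a common distribution and summarises probes, and here all arrays share 1 set of sorted values (2.2511 to 14.799), so a general rise or fall of RNA cannot be seen. The labels' protocols record Trizol isolation from flash-frozen tissue and biotin labelling. No source used here names a genome build for the table, so gene positions serve only to find neighbours. Of 45101 probe sets 64 controls were left out, and 34945 had 1 gene symbol, 932 several and 9160 none listed. By gene ID 34741 matched the reference table and 204 kept the platform's symbol.

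TAC was set against sham in R 4.3.3 by limma 3.58.1 (lmFit, then eBayes; no covariate, no filter, two-sided), with 7 residual and 3.27 prior degrees of freedom, over 18193 genes and, separately, 45037 probe sets. The number of arrays limits the precision. Replicate numbers follow the order of the samples and pair nothing. Figures were made in Python 3.11.15 with matplotlib 3.10.9. The fit was tested on simulated data.

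The members, lists and rules were chosen with earlier results of these data known. All members were named, with up to 4 called genes of each list by smallest p (2 where none passed), the 3 genes most like each of Timp1, Mmp2 and Timp4, and label checks. Reck, Furin, AP-1 and ETS genes, synapsins and genes that complete small counts were picked after their values were seen. Lists were described by counts and medians, with no test. Alternatives are given in the closing section; leaving out arrays for single probe sets, the lists without sham replicate 2 and the gaps over pairs of probe sets were added after seeing the data.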

Additional observations from a re-analysis of the deposited data

Results flagged for a closer look

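Each group of values of the 23 member probe sets was examined for an array that stands far from the rest of its group, 46 groups in all, and 5 were found. Chance gives about 1 in 20 groups. Timp1 in sham replicate 2 was 5.75, where the other sham arrays held 7.33 to 7.94. Timp4 in TAC replicate 1 was 9.04, where the other TAC arrays held 10.22 to 10.45, and its second probe set, 1450974_at, was 7.93 there against 8.89 to 9.07. Mmp23 in TAC replicate 3 was 10.52, where the others held 10.65 to 10.66, so that a small gap stands out in a narrow group. The Timp2 probe set 1450040_at in TAC replicate 4 was 8.94, where the others held 9.23 to 9.27. Without sham replicate 2 the difference of Timp1 was 3.46, and without TAC replicate 1 that of Timp4 was -0.76.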

How the results depend on the processing

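The 6 genes that rose did so under all 10 other settings and in all 9 fits that left out 1 array, where the count of members higher was 6 to 7. The seventh was Timp3, with the mean of its probe sets or without sham replicate 5. The count of members lower, which is Timp4, was 0 at an adjusted p below 0.01, 0 when a change of more than 1.2-fold was tested, and 0 to 1 with 1 array left out. It was 1 under the other settings, which were the mean of probe sets, the brightest below 13, all probe sets, only genes above the median gene, trend with robust fitting, array weights, median centring and cyclic loess. The number of genes called over the whole table was 4565. It was 2608 at an adjusted p below 0.01, 1371 in the test for more than 1.2-fold, 5941 with array weights, 5006 with trend and robust fitting, 4885 with median centring, and 3375 to 4914 with 1 array left out. With only the 9096 genes above the median gene it was 4124. No call of a member was reversed. With each array centred on its median, the median difference over all genes was -0.05. Without sham replicate 2 the pathway lists differed by at most 2 called genes in a direction. No paired analysis was possible because the labels give no replicate numbers that link sham and TAC arrays. The table holds no detection calls, and both Mmp9 probe sets lay below the chemoreceptor level.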
